A study of Mus musculus with 24 samples.

Results

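The collagen chain genes of the mouse were taken as every gene in the count tables whose symbol has the form Col, a number, a, and a number, which leaves out other proteins with collagen-like repeats. The rule found 44 of 57126 genes, and used no measured value. Of these, 38 reached 1 CPM (a count scaled to the size of its library) in at least 4 of the 24 libraries and are described by name. The other 6, Col10a1, Col17a1, Col4a3, Col4a6, Col6a4 and Col9a2, stayed below that level and get no fold change.

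Collagens are secreted or membrane-bound proteins built from chains that wind into a triple helix. Fibrillar chains (types I, II, III, V, XI, XXIV and XXVII) form the cross-striated fibrils of connective tissue, fibril-associated chains (FACIT) decorate them, and type IV chains form the network of basement membranes. In the brain, collagen lies mostly in the meninges, the vessel wall and the choroid plexus, while several transmembrane, multiplexin and FACIT chains are also made by neurons, some of them at synapses.

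The mice came from the BALB/cNctr-Npc1m1N/J strain, whose Npc1-/- animals are a model of Niemann-Pick disease type C, in which the loss of the lysosomal cholesterol transporter NPC1 leads to neurodegeneration. Cerebellum and hippocampus were collected from 12 mice, giving 24 libraries with 4 per group and tissue. Mouse numbers below are the replicate numbers within a group, not the animal numbers of the labels. Npc1-/- mice aged 63 postnatal days received dipyridamole, an inhibitor of phosphodiesterases and nucleoside transport, at 30 mg/kg intraperitoneally on 5 days a week from postnatal day 28, in a mixture of PBS and PEG400 (2 females and 2 males). Npc1-/- mice of the same age received that vehicle alone (1 female and 3 males), and Npc1+/+ mice aged 65 postnatal days also received the vehicle (4 females). Age and the range of Ion code labels went wholly with genotype, so they cannot be told apart from it. In Npc1-/- mice the labels were also split by tissue, 117 to 124 in cerebella and 125 to 131 in hippocampi apart from a repeated 124. In Npc1+/+ mice they alternated between the tissues. The genotype effect compared between the tissues cannot be told apart from that layout either. The RNA came from whole dissected tissue, in which fewer cells of a type and less RNA per cell cannot be told apart, and the allele was absent or present in every cell rather than in a chosen cell type.

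Libraries held between 1833609 and 11590081 counts. The cerebellum of vehicle-treated Npc1-/- mouse 2 was the shallowest, and 3 counts there were worth 1.54 CPM, against 0.261 to 0.825 CPM in the other 23 libraries. Npc1 itself averaged 20.1 ± 6.54 CPM in dipyridamole-treated Npc1-/-, 28.9 ± 7.29 CPM in vehicle-treated Npc1-/- and 102.5 ± 4.71 CPM in Npc1+/+ cerebella (SD, n = 4 each). In hippocampi it averaged 18.6 ± 2.54 CPM in dipyridamole-treated Npc1-/-, 19.9 ± 2.42 CPM in vehicle-treated Npc1-/- and 78.04 ± 15.03 CPM in Npc1+/+ mice (SD, n = 4 each). The 8 cerebellar granule cell markers summed to 3231 to 4549 CPM in the cerebellar and 21.9 to 57.9 CPM in the hippocampal libraries. The 10 hippocampal neuron markers summed to 124.5 to 178.9 CPM in the cerebellar libraries and to 1390 to 1996 CPM in 11 hippocampal ones. The remaining hippocampal library, from dipyridamole-treated mouse 4, had 966.8 CPM, and it carries the same Ion code label (124) as the cerebellum of that mouse. The shallower hippocampal library of vehicle-treated Npc1-/- mouse 2 (3844971 counts) had the highest sum of choroid plexus markers, 8305 CPM. These libraries were singled out after the data were seen. Hippocampal counts of chains that passed are given with and without them, as are the single values for which this is stated.

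Collagen chains made up a small and similar share of every library. Their summed level was 366 to 471 CPM in dipyridamole-treated Npc1-/-, 365 to 428 CPM in vehicle-treated Npc1-/- and 358 to 473 CPM in Npc1+/+ cerebella. In hippocampi the sums were 347 to 526 CPM in dipyridamole-treated Npc1-/-, 338.5 to 552 CPM in vehicle-treated Npc1-/- and 314 to 432 CPM in Npc1+/+ mice. The ranges of the 3 groups overlapped in both tissues. A CPM here is a count scaled to the library's total adjusted by trimmed mean of M-values (TMM) factors, and each gene was read through a short amplicon, so that levels can be compared between libraries but not between genes. Fold changes are log2 values of CPM on the fitted scale, with their standard errors (SE). The adjusted p is that of edgeR's quasi-likelihood test with Benjamini-Hochberg adjustment over all genes tested, with a threshold of 0.05 and sex in the fit, and "passed" means below that threshold.

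**Figure D1:**
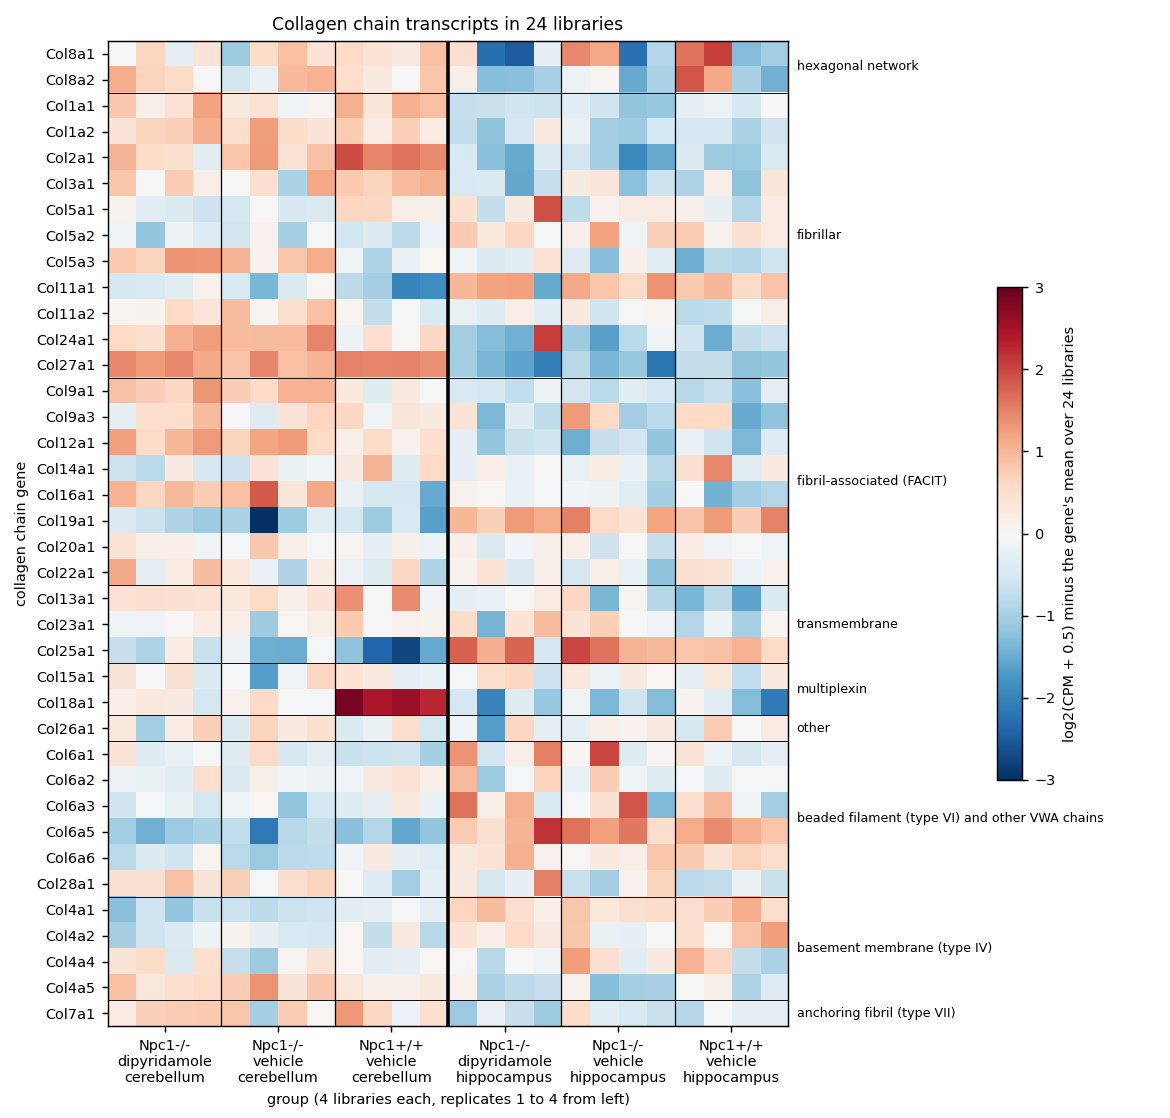
Level of the 38 named collagen chains (rows, grouped by class) in the 24 libraries (columns), as log2(CPM + 0.5) minus the mean of the gene over all libraries; red is above and blue below that mean. Col18a1 stands out in the 4 Npc1+/+ cerebella, Col25a1, Col6a5, Col19a1 and Col11a1 separate the tissues, and Col8a1 and Col8a2 split the hippocampal libraries within groups.

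In the cerebellum, single collagen chains differed with genotype while the ranges of the summed level overlapped. Of 33 members tested, 9 passed between vehicle-treated Npc1-/- and Npc1+/+ cerebella (27.3%), beside 9.95% of all 12921 genes tested. The 6 higher ones stand beside 5.91% of genes and the 3 lower ones beside 4.04%. Col5a3, Col16a1, Col24a1, Col9a1, Col11a2 and Col12a1 were higher in Npc1-/- cerebella, and Col18a1, Col2a1 and Col5a1 were lower. The median log2 fold change was 0.03 over the members and 0.01 over all genes tested. Groups did not overlap for 11 of the 33 members tested, beside 20.7% of all genes tested. By class, 3 fibrillar chains rose and 2 fell of 11 tested, 3 FACIT chains rose and none fell of 6 tested, and 1 of the 2 multiplexins fell. None of the 4 type IV, 3 type VI-like, 3 transmembrane or 2 hexagonal network chains tested passed.

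Col18a1 encodes the multiplexin chain of basement membranes whose carboxy-terminal end is released as endostatin (ENSMUSG00000001435.16, GRCm39 chr10:76888012-77002382, minus strand). Its level was 6.34, 7.17, 6.92 and 3.76 CPM in dipyridamole-treated Npc1-/-, 6.20, 8.74, 5.49 and 5.46 CPM in vehicle-treated Npc1-/-, and 44.0, 32.6, 36.0 and 29.2 CPM in Npc1+/+ cerebella. All 8 Npc1-/- libraries lay below every Npc1+/+ library, with no overlap. Between vehicle-treated Npc1-/- and Npc1+/+ cerebella the log2 fold change was -2.72 ± 0.29 (SE), with an edgeR adjusted p of 5.01e-06, a 6.59-fold lower level. The estimate lay between -2.88 and -2.58 when any single library was left out. Summed over 10 Purkinje cell markers, the level was 1062 to 1447 CPM in dipyridamole-treated Npc1-/-, 1058 to 1432 CPM in vehicle-treated Npc1-/- and 6280 to 7235 CPM in Npc1+/+ cerebella, and 8 of the 9 tested were lower in vehicle-treated Npc1-/- mice. The part of these cells in the Col18a1 difference was not tested. Of the endothelial markers 0 of 10 passed in edgeR, with 0 at an unadjusted p under 0.05, beside 9.95% of all genes that passed. Their sums were 337 to 417 CPM in dipyridamole-treated Npc1-/-, 295 to 436 CPM in vehicle-treated Npc1-/- and 265 to 329 CPM in Npc1+/+ cerebella. Their mean log2 CPM was 2.66 to 2.91, 2.76 to 2.91 and 2.75 to 2.91 in that order.

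The table of RefSeq promoters used here (GRCm38.p6, 250 bases before to 50 after a start) matched 35 of the 44 members with 38 windows, and holds 2 starts of Col18a1, 52825 bases apart. They are shown because Col18a1 had the largest fitted difference among the chains in this comparison. Capitals mark the CCAAT box (letters CCAAT), the GC box (letters GGGCGG) and the TATA box (letters TATAAA) on either strand. The first window has 1 CCAAT box and 3 GC boxes, and the second has none of the 3 motifs. Counts summed over the gene do not separate transcripts from the 2 starts. The CCAAT box occurs in 34.2% of the windows of collagen chains and 37.4% of all 32851 windows, the GC box in 60.5% and 35.7%, and the TATA box in 13.2% and 13.6%; a match describes the sequence and is not a binding site.
Col18a1 (chr10:77166481-77166780, minus strand): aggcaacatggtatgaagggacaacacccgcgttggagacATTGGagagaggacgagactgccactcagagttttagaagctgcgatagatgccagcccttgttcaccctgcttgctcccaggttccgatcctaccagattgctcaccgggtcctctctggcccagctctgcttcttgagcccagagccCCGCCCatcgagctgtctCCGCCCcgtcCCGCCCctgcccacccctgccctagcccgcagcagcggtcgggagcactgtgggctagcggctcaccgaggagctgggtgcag
Col18a1 (chr10:77113656-77113955, minus strand): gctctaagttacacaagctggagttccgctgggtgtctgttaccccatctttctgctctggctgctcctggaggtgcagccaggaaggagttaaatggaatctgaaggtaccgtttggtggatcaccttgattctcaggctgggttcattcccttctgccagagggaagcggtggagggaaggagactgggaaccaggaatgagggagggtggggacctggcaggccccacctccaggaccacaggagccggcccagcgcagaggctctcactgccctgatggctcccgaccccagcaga

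The fibrillar chains moved in both directions. Col2a1 encodes the chain of cartilage and vitreous fibrils (ENSMUSG00000022483.18, GRCm39 chr15:97873483-97902576, minus strand). It was measured at 8.07, 5.77, 5.49 and 2.90 CPM in dipyridamole-treated Npc1-/-, 7.04, 9.77, 5.24 and 7.33 CPM in vehicle-treated Npc1-/-, and 16.2, 11.2, 12.7 and 10.9 CPM in Npc1+/+ cerebella. No Npc1-/- library reached the lowest Npc1+/+ one, and the log2 fold change was -1.34 ± 0.30 (SE), with an edgeR adjusted p of 0.00715. Col5a1 encodes a type V chain that sets the width of type I fibrils (ENSMUSG00000026837.17, GRCm39 chr2:27776437-27929526, plus strand). Its level was 27.6, 20.3, 19.1 and 16.3 CPM in dipyridamole-treated Npc1-/-, 17.4, 25.2, 18.2 and 18.8 CPM in vehicle-treated Npc1-/-, and 40.0, 39.1, 28.6 and 28.7 CPM in Npc1+/+ cerebella. Again the groups did not overlap, and for vehicle-treated mice the log2 fold change was -1.02 ± 0.23 (SE), with an edgeR adjusted p of 0.00791.

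Col5a3, a further type V chain (ENSMUSG00000004098.8, GRCm39 chr9:20681346-20726363, minus strand), went the other way. Its level was 2.77, 2.49, 4.28 and 4.19 CPM in dipyridamole-treated Npc1-/-, 3.34, 1.54, 2.87 and 3.59 CPM in vehicle-treated Npc1-/-, and 1.22, 0.5, 1.16 and 1.45 CPM in Npc1+/+ cerebella. Each of the 8 Npc1-/- cerebella exceeded all 4 Npc1+/+ cerebella, and the log2 fold change was 1.77 ± 0.43 (SE), with an edgeR adjusted p of 0.0133. Col11a2 encodes a type XI chain, which forms the core of fibrils together with type II (ENSMUSG00000024330.18, GRCm39 chr17:34258411-34285659, plus strand). It was measured at 23.8, 23.9, 33.7 and 28.6 CPM in dipyridamole-treated Npc1-/-, 42.9, 23.6, 32.2 and 42.3 CPM in vehicle-treated Npc1-/-, and 23.8, 13.3, 21.4 and 16.1 CPM in Npc1+/+ cerebella. Replicate 1 of the Npc1+/+ mice was as high as the lowest Npc1-/- libraries, so the groups overlapped, and the log2 fold change was 1.07 ± 0.27 (SE), with an edgeR adjusted p of 0.0169. Col24a1, a fibrillar chain known from developing bone (ENSMUSG00000028197.5, GRCm39 chr3:144998233-145257766, plus strand), had 3.11, 2.81, 4.50 and 5.16 CPM in dipyridamole-treated Npc1-/-, 4.05, 4.11, 4.12 and 6.04 CPM in vehicle-treated Npc1-/-, and 1.65, 2.90, 1.93 and 3.15 CPM in Npc1+/+ cerebella. Vehicle-treated Npc1-/- cerebella were all above the Npc1+/+ ones, and the log2 fold change was 1.19 ± 0.37 (SE), with an edgeR adjusted p of 0.0491, which did not pass in 10 of the 12 fits that left out 1 library.

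The other chains that rose were FACIT chains, which sit on the surface of fibrils. Col16a1 (ENSMUSG00000040690.16, GRCm39 chr4:129941633-129993076, plus strand) had 14.4, 10.8, 13.7 and 11.8 CPM in dipyridamole-treated Npc1-/-, 13.2, 25.7, 8.86 and 15.5 CPM in vehicle-treated Npc1-/-, and 5.82, 4.70, 4.75 and 2.06 CPM in Npc1+/+ cerebella. All Npc1-/- libraries lay above the Npc1+/+ ones, with replicate 2 of the vehicle-treated mice, the shallowest library, highest, and the log2 fold change was 1.48 ± 0.37 (SE), with an edgeR adjusted p of 0.0156. Col9a1, a chain of the type IX collagen that coats type II fibrils (ENSMUSG00000026147.17, GRCm39 chr1:24216691-24291765, plus strand), was measured at 6.46, 5.77, 5.27 and 8.92 CPM in dipyridamole-treated Npc1-/-, 5.72, 5.14, 7.24 and 7.19 CPM in vehicle-treated Npc1-/-, and 4.08, 2.40, 4.11 and 3.15 CPM in Npc1+/+ cerebella. The groups did not overlap, and the log2 fold change was 1.08 ± 0.31 (SE), with an edgeR adjusted p of 0.0304. Col12a1, which binds type I fibrils (ENSMUSG00000032332.18, GRCm39 chr9:79506273-79626113, minus strand), had 19.1, 12.0, 16.2 and 19.98 CPM in dipyridamole-treated Npc1-/-, 12.9, 18.5, 19.9 and 12.2 CPM in vehicle-treated Npc1-/-, and 9.04, 11.8, 8.72 and 11.5 CPM in Npc1+/+ cerebella. Npc1-/- cerebella were all higher, the nearest by a small margin, and the log2 fold change was 0.85 ± 0.25 (SE), with an edgeR adjusted p of 0.0358. Leaving out 1 library lost the call of Col9a1 in 6 and of Col12a1 in 5 of 12 fits.

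**Figure D2:**
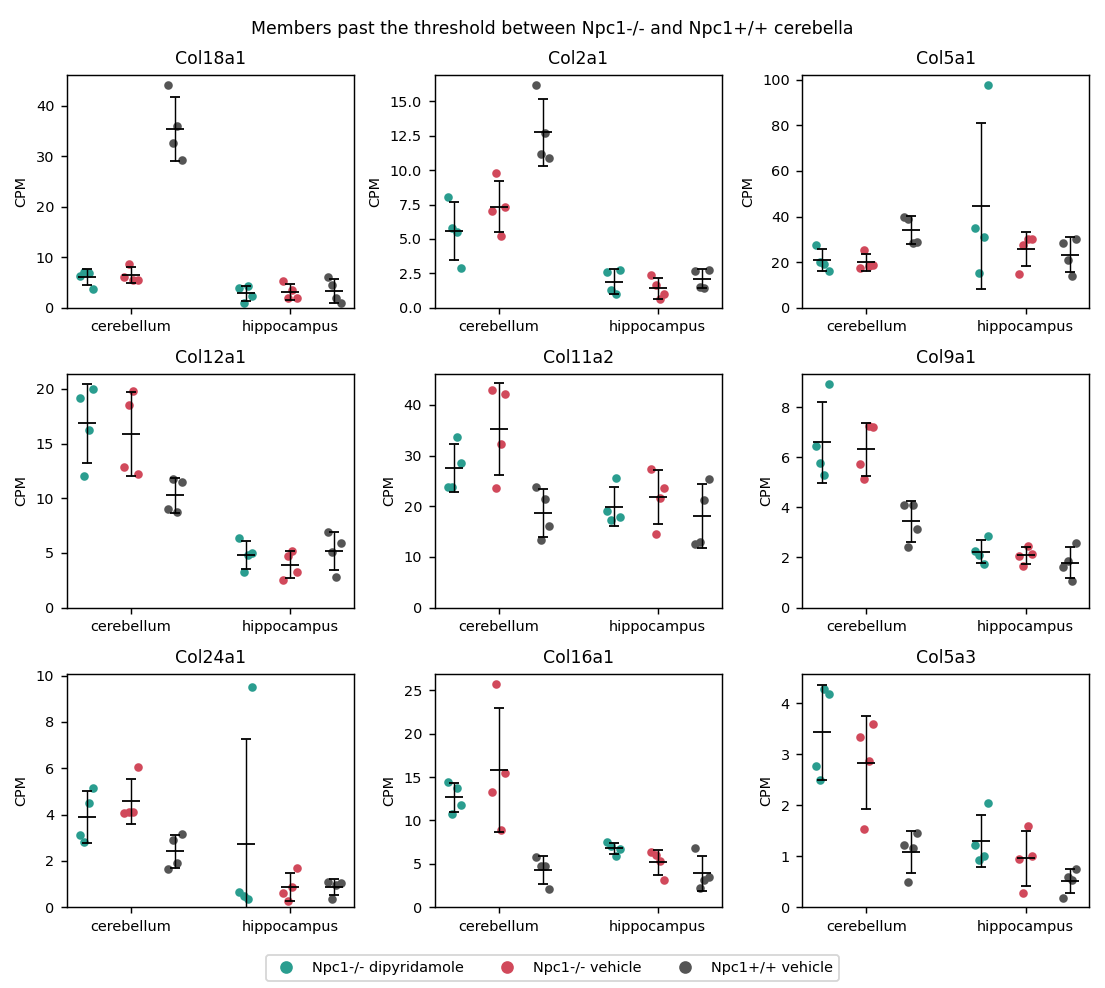
CPM of the 9 collagen chains that passed between vehicle-treated Npc1-/- and Npc1+/+ cerebella, in dipyridamole-treated Npc1-/-, vehicle-treated Npc1-/- and Npc1+/+ mice of each tissue (left to right; points are libraries, bars are the mean ± SD, n = 4; the y axis starts at 0, where bars reaching below end). Col18a1 is at 29.2 CPM or more in the 4 Npc1+/+ cerebella and at 8.74 CPM or less in all other libraries, and dipyridamole-treated mouse 4 stands apart for Col5a1 and Col24a1 in the hippocampus.

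The number of members that passed depended on the fit. It was 9 of 33 with all 3 cerebellar groups sharing 1 estimate of the spread, and 1 (Col18a1) when only the 2 groups compared entered. Without vehicle-treated Npc1-/- replicate 3, the only female of its group, it was 4, and without the shallow replicate 2 it was 10. Females alone left 1 vehicle-treated Npc1-/- library, so no count is given. Counts over all genes moved with the fit too, as given below for some fits, so these counts alone do not set the members apart. Microglial markers moved along with the genotype, at 843 to 1128 CPM in dipyridamole-treated Npc1-/-, 863 to 976 CPM in vehicle-treated Npc1-/- and 70.4 to 83.6 CPM in Npc1+/+ cerebella summed over 12 genes, with 10 of 11 tested higher. Of 10 astrocyte markers 3 were higher and 2 lower in vehicle-treated Npc1-/- cerebella. Their mean log2 CPM was 8.01 to 8.17 in dipyridamole-treated Npc1-/-, 8.04 to 8.13 in vehicle-treated Npc1-/- and 7.37 to 7.55 in Npc1+/+ cerebella, without overlap between genotypes. Their summed level was 5714 to 6917 CPM in dipyridamole-treated Npc1-/-, 4674 to 6550 CPM in vehicle-treated Npc1-/- and 4850 to 5368 CPM in Npc1+/+ cerebella. By that measure the vehicle-treated Npc1-/- and Npc1+/+ ranges overlapped. Gfap, 1 of the 3 higher, was at 3.78 ± 0.18 (edgeR adjusted p = 1.91e-10) on the log2 scale. Of other cell types, 1 of 14 leptomeningeal fibroblast markers (Slc6a20a) and 1 of 11 mural cell markers (Anpep) rose. Mean log2 CPM of the mural markers was 2.94 to 3.03 in dipyridamole-treated Npc1-/-, 2.83 to 3.41 in vehicle-treated Npc1-/- and 2.40 to 2.64 in Npc1+/+ cerebella, without overlap between genotypes. Their sums in that order were 379 to 424, 318 to 469 and 311.5 to 343 CPM. Sums of the fibroblast markers were 300 to 391, 250 to 348.5 and 234 to 290 CPM. Of the choroid plexus markers 0 of 15 passed in edgeR, with 0 at an unadjusted p under 0.05. The part of any of these cell types in the collagen differences was not tested.

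Dipyridamole treatment of Npc1-/- mice went with no collagen difference that passed. In the cerebellum 0 of 33 members passed against vehicle-treated Npc1-/- mice, with 1 at an unadjusted p under 0.05, beside 0.00% of 12921 genes; 300 genes (2.32%) were at that unadjusted level, and DESeq2 also called 0 members. In the hippocampus 0 of 31 passed, with 0 at an unadjusted p under 0.05, beside 0.00% of 12740 genes; 93 genes (0.730%) were at the unadjusted level, and DESeq2 called 0 members. The member of smallest p was Col1a1, a chain of type I collagen, the main fibril of skin, bone and meninges (ENSMUSG00000001506.11, GRCm39 chr11:94827050-94843868, plus strand). Its cerebellar level was 47.0, 30.2, 36.6 and 62.9 CPM in dipyridamole-treated Npc1-/-, 32.8, 36.5, 25.2 and 28.5 CPM in vehicle-treated Npc1-/-, and 56.7, 34.7, 56.5 and 50.7 CPM in Npc1+/+ cerebella. The treated and vehicle-treated ranges overlapped, and for dipyridamole over vehicle the log2 fold change was 0.51 ± 0.23 (SE), with an edgeR adjusted p of 0.9998. For Col18a1 the difference between treated and vehicle-treated cerebella was 0.02 ± 0.24 on the log2 scale, and for Col2a1 it was -0.22 ± 0.25. The next members by p in the cerebellum were Col11a2 at -0.44 ± 0.22, Col27a1 at 0.34 ± 0.19, Col4a1 at -0.28 ± 0.21 and Col4a4 at 0.52 ± 0.42 on the log2 scale (± SE). In hippocampi those of smallest p were Col7a1 at -0.67 ± 0.45, Col4a4 at -0.79 ± 0.63, Col2a1 at 0.62 ± 0.51, Col16a1 at 0.41 ± 0.34 and Col5a1 at 0.42 ± 0.42. Without the hippocampal libraries of vehicle-treated mouse 2 and dipyridamole-treated mouse 4 the hippocampal count was 0 of 32, and Col5a1 was at 0.11 ± 0.35. A p above the threshold does not show that the groups were alike.

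Against Npc1+/+ cerebella, dipyridamole-treated Npc1-/- cerebella differed in 10 of 33 members (30.3%), 6 higher and 4 lower, beside 14.4% of all genes tested, 8.13% higher and 6.29% lower. This comparison uses the same Npc1+/+ libraries as that of vehicle-treated mice, and is given side by side with it only. Of the chains described above, the log2 fold change was -2.70 ± 0.25 for Col18a1, -1.56 ± 0.27 for Col2a1 and -0.87 ± 0.20 for Col5a1. It was 1.84 ± 0.37 for Col5a3, 1.37 ± 0.31 for Col16a1, 1.06 ± 0.27 for Col9a1 and 0.89 ± 0.22 for Col12a1, and all 7 passed. Col11a2 and Col24a1 did not pass here, at 0.63 ± 0.23 and 0.85 ± 0.32.

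Further chains passed in dipyridamole-treated cerebella. Col11a1, the partner of Col11a2 in type XI fibrils (ENSMUSG00000027966.21, GRCm39 chr3:113824189-114014367, plus strand), had 38.8, 39.4, 43.3 and 59.4 CPM in dipyridamole-treated Npc1-/-, 39.5, 20.6, 39.7 and 56.4 CPM in vehicle-treated Npc1-/-, and 31.3, 26.7, 13.1 and 14.5 CPM in Npc1+/+ cerebella. Treated libraries were all above the Npc1+/+ ones, and the log2 fold change was 1.18 ± 0.30 (SE), with an edgeR adjusted p of 0.0150; in vehicle-treated mice the log2 difference was 1.08 ± 0.35 with an edgeR adjusted p of 0.0632. Col25a1 encodes a neuronal transmembrane collagen whose shed part was found in amyloid plaques (ENSMUSG00000058897.19, GRCm39 chr3:129925150-130393526, plus strand). It was measured at 2.08, 1.71, 4.39 and 2.15 CPM in dipyridamole-treated Npc1-/-, 3.22, 1.03, 0.999 and 3.59 CPM in vehicle-treated Npc1-/-, and 1.30, 0.300, 0.128 and 0.970 CPM in Npc1+/+ cerebella. Every treated library exceeded the Npc1+/+ ones, which lay between 1 and 15 counts, and the log2 fold change was 1.87 ± 0.59 (SE), with an edgeR adjusted p of 0.0403. Leaving out 1 library gave 1.12 to 2.45 and lost the call in 5 of 12 fits, with 1.12 without treated replicate 3. Col4a1 encodes a chain of the type IV network of vessel walls (ENSMUSG00000031502.12, GRCm39 chr8:11248423-11362826, minus strand). Its level was 6.92, 11.2, 7.25 and 10.5 CPM in dipyridamole-treated Npc1-/-, 10.8, 9.77, 10.9 and 11.2 CPM in vehicle-treated Npc1-/-, and 13.5, 13.8, 16.6 and 14.2 CPM in Npc1+/+ cerebella. All 8 Npc1-/- libraries were below the Npc1+/+ range, and for treated mice the log2 fold change was -0.68 ± 0.22 (SE), with an edgeR adjusted p of 0.0432, which did not pass in 9 of the 12 fits that left out 1 library. Without treated replicate 4 the count of members that passed was 4.

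In the hippocampus no collagen chain passed between genotypes. Of 31 members tested, 0 passed between vehicle-treated Npc1-/- and Npc1+/+ mice, with 3 at an unadjusted p under 0.05, beside 1.62% of 12740 genes (12.3% unadjusted), and DESeq2 called 0. For dipyridamole-treated mice 0 of 31 passed, with 5 at an unadjusted p under 0.05, beside 2.68% of genes (16.5% unadjusted), and DESeq2 again called 0. Without the hippocampal libraries of vehicle-treated mouse 2 and dipyridamole-treated mouse 4 both counts were 0 of 32. The member of smallest p was Col1a1, at 16.5, 16.8, 17.6 and 17.0 CPM in dipyridamole-treated Npc1-/-, 20.9, 17.6, 11.5 and 12.0 CPM in vehicle-treated Npc1-/-, and 22.6, 23.8, 19.1 and 26.9 CPM in Npc1+/+ hippocampi. Npc1-/- libraries tended to the low side but overlapped the Npc1+/+ ones in vehicle-treated mice, and the log2 fold change was -0.73 ± 0.27 (SE), with an edgeR adjusted p of 0.265. Col13a1, a transmembrane chain needed at the neuromuscular junction (ENSMUSG00000058806.16, GRCm39 chr10:61674015-61814887, minus strand), had 1.69, 1.86, 2.26 and 2.72 CPM in dipyridamole-treated Npc1-/-, 3.65, 0.550, 2.34 and 0.999 CPM in vehicle-treated Npc1-/-, and 0.542, 1.05, 0.403 and 1.51 CPM in Npc1+/+ hippocampi. Its groups overlapped between vehicle-treated Npc1-/- and Npc1+/+ mice, and the log2 fold change was 1.49 ± 0.65 (SE), with an edgeR adjusted p of 0.374.

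In dipyridamole-treated over Npc1+/+ hippocampi the smallest p was that of Col5a1, for which the log2 fold change was 1.27 ± 0.42 (SE), with an edgeR adjusted p of 0.142. Treated mouse 4, at 97.8 CPM, was far above its 3 group mates, at 15.4 to 35.02 CPM, and without it and the library of vehicle-treated mouse 2 the log2 fold change was 0.43 ± 0.40, with an edgeR adjusted p of 0.771. The next were Col8a2 at -3.21 ± 1.14, Col13a1 at 1.49 ± 0.58, Col1a1 at -0.54 ± 0.23 and Col8a1 at -3.02 ± 1.27 on the log2 scale (± SE).

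Col6a5, a von Willebrand factor A domain chain of type VI collagen (ENSMUSG00000091345.11, GRCm39 chr9:105733277-105837842, minus strand), was at 3.28, 2.55, 4.01 and 9.51 CPM in dipyridamole-treated Npc1-/-, 6.34, 4.67, 6.16 and 2.71 CPM in vehicle-treated Npc1-/-, and 4.34, 5.39, 4.16 and 3.47 CPM in Npc1+/+ hippocampi. The ranges overlapped, and the log2 fold change was 0.83 ± 0.44 (SE), with an edgeR adjusted p of 0.482. Col23a1, a transmembrane chain (ENSMUSG00000063564.14, GRCm39 chr11:51180747-51474745, plus strand), was at 32.3, 8.003, 29.4 and 42.9 CPM in dipyridamole-treated Npc1-/-, 29.2, 36.5, 21.8 and 20.4 CPM in vehicle-treated Npc1-/-, and 11.8, 19.6, 10.9 and 23.1 CPM in Npc1+/+ hippocampi. Treated replicate 2 was below all other hippocampal libraries, and for vehicle-treated mice the log2 fold change was 1.00 ± 0.53 (SE), with an edgeR adjusted p of 0.484. In the cerebellum Col23a1 was at 19.8, 20.4, 22.6 and 25.5 CPM in dipyridamole-treated Npc1-/-, 25.1, 10.3, 22.8 and 24.9 CPM in vehicle-treated Npc1-/-, and 38.2, 21.4, 23.9 and 23.6 CPM in Npc1+/+ cerebella, with overlapping groups.

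**Figure D3:**
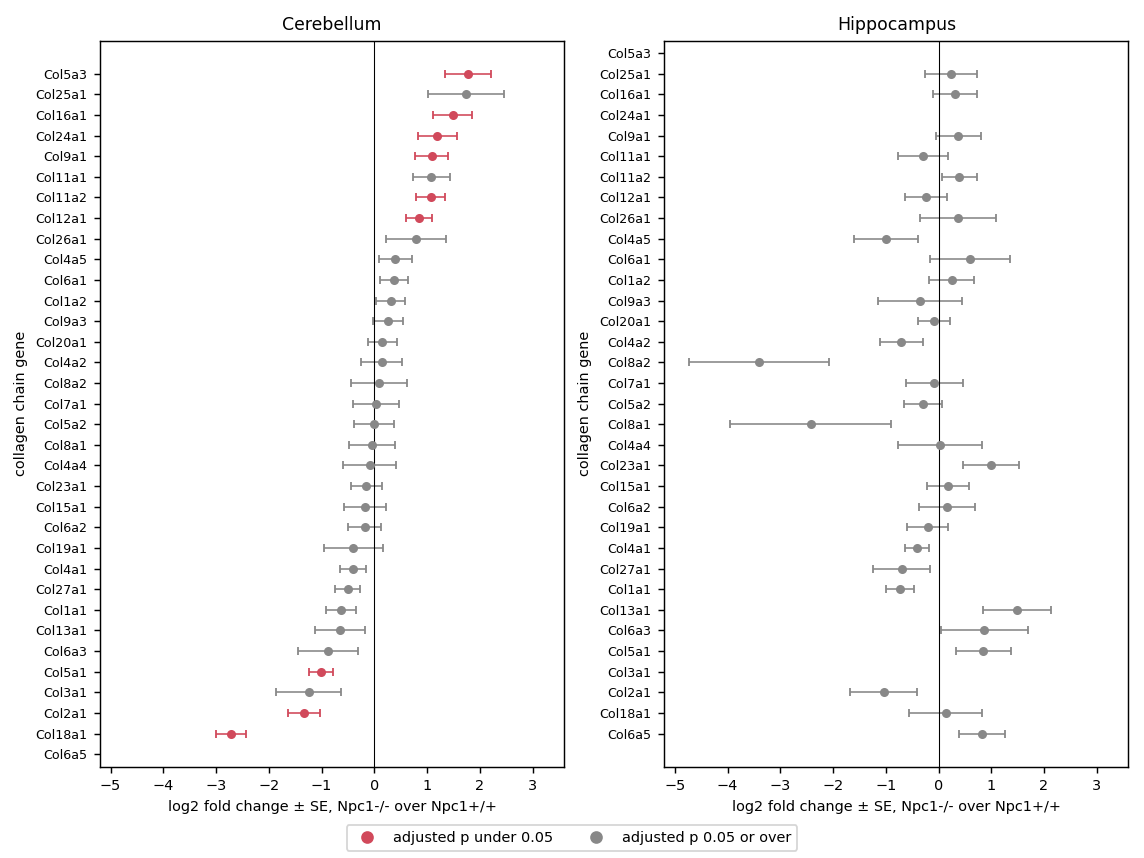
Log2 fold change ± SE (x axis) of each tested collagen chain (y axis, same order in both panels) in vehicle-treated Npc1-/- over Npc1+/+ mice, in cerebellum and hippocampus (n = 4 each); red marks an adjusted p under 0.05, and a chain without a point was not tested in that tissue. In the cerebellum 9 chains are red, from Col18a1 at -2.72 to Col5a3 at 1.77, and 0 in the hippocampus.

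The genotype effect was compared between the tissues in 1 fit that kept each mouse as a block. Of 34 members, 1 passed (2.94%) and was negative, beside 1.15% of 13436 genes, 0.610% negative. For Col18a1 the genotype effect in cerebellum minus that in hippocampus was -3.02 ± 0.65 on the log2 scale, with an edgeR adjusted p of 0.0270. Hippocampal Col18a1 was low in all groups, at 3.84, 1.04, 4.26 and 2.31 CPM in dipyridamole-treated Npc1-/-, 5.23, 1.92, 3.58 and 2.00 CPM in vehicle-treated Npc1-/-, and 6.15, 4.46, 2.01 and 0.906 CPM in Npc1+/+ hippocampi. The call was lost, with a difference of -3.10, without both libraries of vehicle-treated Npc1-/- mouse 2 and of dipyridamole-treated mouse 4, and in 8 of the 24 fits that left out 1 library. A library whose partner is left out does not enter this comparison, so the 2 fits of a mouse are nearly the same test. Those 8 fits lacked either library of mouse 3 of each group or of vehicle-treated Npc1-/- mouse 1. Col5a1 was next, at -1.79 ± 0.49 with an edgeR adjusted p of 0.119, and hippocampal Col5a1 was 35.02, 15.4, 31.0 and 97.8 CPM in dipyridamole-treated Npc1-/-, 14.9, 27.8, 30.2 and 30.4 CPM in vehicle-treated Npc1-/-, and 28.6, 20.9, 13.8 and 30.2 CPM in Npc1+/+ hippocampi. Treated mouse 4 was far above the other hippocampal libraries, and without both libraries of the same 2 mice the Col5a1 difference was -1.39 ± 0.39, with an edgeR adjusted p of 0.171. Col12a1 (1.04 ± 0.38), Col13a1 (-1.99 ± 0.91) and Col16a1 (1.12 ± 0.53) followed in order of p, and none of the 3 passed. For the other chains that passed in the cerebellum, no difference between the tissues passed.

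Among hippocampal libraries, Col8a1, Col8a2 and Col9a3 were high where choroid plexus markers were high, within every group. Col8a1 and Col8a2 encode the chains of the hexagonal network of Descemet's membrane in the eye, and Col9a3 a type IX chain. The 15 choroid plexus markers summed to 5296, 143.5, 417.6 and 118.3 CPM in dipyridamole-treated Npc1-/-, 4928, 8305, 178.5 and 673.4 CPM in vehicle-treated Npc1-/-, and 3334, 3873, 88.6 and 135.5 CPM in Npc1+/+ hippocampi. Col8a1 (ENSMUSG00000068196.6, GRCm39 chr16:57444621-57575100, minus strand) had 4.49, 0.232, 0.125 and 2.44 CPM in dipyridamole-treated Npc1-/-, 9.04, 7.42, 0.247 and 1.43 CPM in vehicle-treated Npc1-/-, and 10.2, 14.4, 0.940 and 1.21 CPM in Npc1+/+ hippocampi. It was at least 4.49 CPM in the 5 libraries with 3334 CPM or more of these markers and at most 2.445 CPM in the other 7. Col8a2 (ENSMUSG00000056174.9, GRCm39 chr4:126180586-126208123, plus strand) had 1.498, 0.232, 0.251 and 0.407 CPM in dipyridamole-treated Npc1-/-, 1.11, 1.37, 0.123 and 0.428 CPM in vehicle-treated Npc1-/-, and 6.05, 3.40, 0.403 and 0.151 CPM in Npc1+/+ hippocampi. The same 5 libraries were at 1.11 CPM or more, and the other 7 at 0.428 CPM or less. Col9a3 (ENSMUSG00000027570.16, GRCm39 chr2:180239583-180263982, plus strand) was at 44.9, 13.0, 26.2 and 19.7 CPM in dipyridamole-treated Npc1-/-, 81.5, 50.9, 16.3 and 19.1 CPM in vehicle-treated Npc1-/-, and 50.9, 51.0, 11.4 and 14.2 CPM in Npc1+/+ hippocampi. Again the 5 libraries rich in these markers were highest, at 44.9 CPM or more.

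Libraries of each group lay on both sides of these splits. For Col8a2 the log2 fold change was -3.40 ± 1.33 (SE), with an edgeR adjusted p of 0.305 in vehicle-treated mice, and for Col8a1 the log2 fold change was -2.42 ± 1.52 (SE), with an edgeR adjusted p of 0.572; the only female of that group was among the libraries poor in choroid plexus markers, and with sex in the fit the log2 fold changes of all 15 choroid plexus markers were negative and 0 passed, with 0 at an unadjusted p under 0.05. In cerebella the marker sums were 1531 to 2937 CPM in dipyridamole-treated Npc1-/-, 74.8 to 2945 CPM in vehicle-treated Npc1-/- and 518 to 2392 CPM in Npc1+/+ mice. The cerebellum with 74.8 CPM, from vehicle-treated Npc1-/- mouse 1, had the lowest cerebellar Col8a1, 1.19 CPM, and Col8a2, 0.716 CPM. Col9a3 was not lowest there, at 33.3 CPM. The cerebellum with 2945 CPM of markers, from vehicle-treated Npc1-/- mouse 2, had 25.7 CPM of Col9a3. With a choroid plexus score as covariate, 8 members passed between vehicle-treated Npc1-/- and Npc1+/+ cerebella and 0 between hippocampi.

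**Figure D4:**
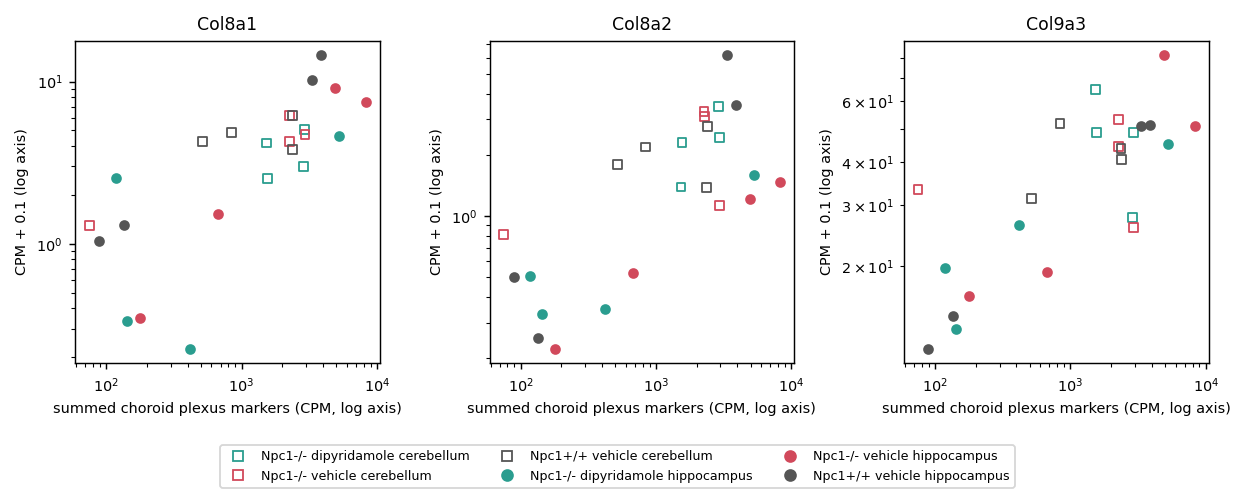
CPM + 0.1 of Col8a1, Col8a2 and Col9a3 (y axes, log) against the summed CPM of 15 choroid plexus markers (x axis, log) in 24 libraries; open squares are cerebella and filled circles hippocampi, coloured by group. The 5 hippocampal libraries at 3334 CPM of markers or more have at least 4.49 CPM of Col8a1, and all 3 groups are present on both sides.

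Between the tissues of Npc1+/+ mice, 17 of 34 members differed (50.0%), 10 higher and 7 lower in cerebellum, beside 43.1% of 13436 genes tested (21.3% higher and 21.8% lower), so the share lay near that of all genes. Col18a1 differed most on the high side. Its level of 44.0, 32.6, 36.0 and 29.2 CPM in cerebella and 6.15, 4.46, 2.01 and 0.906 CPM in hippocampi gave a log2 fold change of 3.50 ± 0.35 (SE), with an edgeR adjusted p of 2.62e-07. Col27a1, a fibrillar chain of cartilage (ENSMUSG00000045672.16, GRCm39 chr4:63132241-63253228, plus strand), had 13.0, 12.8, 13.2 and 12.1 CPM in cerebella and 2.44, 2.46, 1.61 and 1.66 CPM in hippocampi. The tissues did not overlap, and the log2 fold change was 2.63 ± 0.28 (SE), with an edgeR adjusted p of 6.06e-07. Col2a1 had 16.2, 11.2, 12.7 and 10.9 CPM in cerebella and 2.71, 1.52, 1.48 and 2.72 CPM in hippocampi, again without overlap, and the log2 fold change was 2.61 ± 0.33 (SE), with an edgeR adjusted p of 5.17e-06. Col13a1 had 6.43, 2.10, 6.67 and 2.06 CPM in cerebella and 0.542, 1.05, 0.403 and 1.51 CPM in hippocampi, and the log2 fold change was 2.19 ± 0.53 (SE), with an edgeR adjusted p of 0.00280.

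The chains of type I and type III fibrils were higher in cerebellum as well. Col1a1 had 56.7, 34.7, 56.5 and 50.7 CPM in cerebella and 22.6, 23.8, 19.1 and 26.9 CPM in hippocampi, and the log2 fold change was 1.09 ± 0.19 (SE), with an edgeR adjusted p of 1.28e-04. Its partner Col1a2 (ENSMUSG00000029661.17, GRCm39 chr6:4504814-4541544, plus strand) had 23.4, 15.7, 22.3 and 15.8 CPM in cerebella and 9.49, 9.38, 6.71 and 8.76 CPM in hippocampi, and the log2 fold change was 1.15 ± 0.25 (SE), with an edgeR adjusted p of 0.00106. Neither chain overlapped between the tissues. Col3a1, the chain of type III fibrils in vessels and meninges (ENSMUSG00000026043.19, GRCm39 chr1:45350698-45388866, plus strand), had 2.00, 1.80, 2.31 and 2.54 CPM in cerebella and 0.271, 1.17, 0.134 and 1.36 CPM in hippocampi, and the log2 fold change was 1.70 ± 0.60 (SE), with an edgeR adjusted p of 0.0289. For Col12a1 the log2 fold change was 1.01 ± 0.21 (SE), with an edgeR adjusted p of 7.80e-04, without overlap. For Col9a1, whose tissues overlapped, the log2 fold change was 0.95 ± 0.29 (SE), with an edgeR adjusted p of 0.0148. Col7a1, the chain of the anchoring fibrils of skin (ENSMUSG00000025650.14, GRCm39 chr9:108782654-108813943, plus strand), had 6.95, 4.20, 2.18 and 3.76 CPM in cerebella and 1.18, 2.58, 2.01 and 1.96 CPM in hippocampi. One cerebellum lay within the hippocampal range, and the log2 fold change was 1.11 ± 0.36 (SE), with an edgeR adjusted p of 0.0202. In this fit a library whose partner is left out does not enter the comparison. Npc1-/- libraries bear on it mainly through the shared estimate of the spread. When 1 library of the 4 Npc1+/+ mice was left out, Col3a1 and Col9a1 each lost the call without either library of mouse 1 or 3. Col7a1 lost it without either library of mouse 1. The estimate then ran from 1.31 to 2.18 for Col3a1, 0.68 to 1.17 for Col9a1 and 0.60 to 1.40 for Col7a1. Leptomeningeal fibroblast markers other than collagens were higher in cerebellum for 7 and lower for 3 of 14 tested. Over all genes tested 21.3% were higher and 21.8% lower. The marker sums were 234 to 290 CPM in cerebella and 174 to 276 CPM in hippocampi. The part of these fibroblasts in the tissue differences was not tested.

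Of the 7 chains lower in cerebellum, Col25a1 differed most. It had 1.30, 0.300, 0.128 and 0.970 CPM in cerebella and 6.96, 7.15, 8.19 and 5.89 CPM in hippocampi, and the log2 fold change was -3.36 ± 0.49 (SE), with an edgeR adjusted p of 2.33e-05. Col19a1, a FACIT chain that in mice is needed for hippocampal inhibitory synapses (ENSMUSG00000026141.14, GRCm39 chr1:24300971-24626553, minus strand), had 2.43, 1.5, 2.57 and 0.848 CPM in cerebella and 7.05, 9.62, 6.45 and 11.3 CPM in hippocampi, and the log2 fold change was -2.21 ± 0.38 (SE), with an edgeR adjusted p of 1.29e-04. Both were lower in every cerebellum. Col6a5 had 0.434, 0.700, 0.257 and 0.485 CPM in cerebella and 4.34, 5.39, 4.16 and 3.47 CPM in hippocampi, and the log2 fold change was -3.17 ± 0.40 (SE), with an edgeR adjusted p of 4.32e-06. Col11a1 had 31.3, 26.7, 13.1 and 14.5 CPM in cerebella and 93.2, 108.2, 80.4 and 99.2 CPM in hippocampi, and the log2 fold change was -2.22 ± 0.41 (SE), with an edgeR adjusted p of 9.22e-04. Neither overlapped between the tissues. In the hippocampi of Npc1-/- mice Col11a1 was 109, 125, 128 and 18.6 CPM with dipyridamole and 119, 96.7, 80.6 and 139 CPM with vehicle, so that the library of treated mouse 4, low in hippocampal neuron markers, was the only one near the cerebellar levels. Col5a2, a type V chain (ENSMUSG00000026042.17, GRCm39 chr1:45413481-45542442, minus strand), had 5.30, 5.80, 4.36 and 6.91 CPM in cerebella and 13.8, 8.79, 11.0 and 9.52 CPM in hippocampi, and the log2 fold change was -0.95 ± 0.22 (SE), with an edgeR adjusted p of 0.00211.

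The 2 main type IV chains were both lower in cerebellum. Col4a1 had 13.5, 13.8, 16.6 and 14.2 CPM in cerebella and 24.7, 29.1, 37.1 and 24.8 CPM in hippocampi, and the log2 fold change was -0.98 ± 0.16 (SE), with an edgeR adjusted p of 9.23e-05. Col4a2 (ENSMUSG00000031503.14, GRCm39 chr8:11362805-11499287, plus strand) had 6.43, 3.6, 7.70 and 3.27 CPM in cerebella and 9.13, 6.45, 11.6 and 15.4 CPM in hippocampi. One cerebellum exceeded the lowest hippocampus, and the log2 fold change was -1.003 ± 0.27 (SE), with an edgeR adjusted p of 0.00518. Of the 10 endothelial markers tested 0 passed in edgeR, with 0 at an unadjusted p under 0.05, a median log2 difference of 0.04 and sums of 265 to 329 CPM in cerebella and 273 to 333 CPM in hippocampi. Col4a1 and Col4a2 lie head to head, and their annotated transcripts share 22 bases on opposite strands, in which reads counted without strand cannot be told apart. In the RefSeq table their starts lie 21 bases apart and the 2 windows share 78 bases. They are shown because 1 stretch of DNA precedes both genes; capitals mark the same letters as above, with 1 CCAAT box and 1 GC box in the Col4a1 window and 1 CCAAT box and 3 GC boxes in that of Col4a2.
Col4a1 (chr8:11312777-11313076, minus strand): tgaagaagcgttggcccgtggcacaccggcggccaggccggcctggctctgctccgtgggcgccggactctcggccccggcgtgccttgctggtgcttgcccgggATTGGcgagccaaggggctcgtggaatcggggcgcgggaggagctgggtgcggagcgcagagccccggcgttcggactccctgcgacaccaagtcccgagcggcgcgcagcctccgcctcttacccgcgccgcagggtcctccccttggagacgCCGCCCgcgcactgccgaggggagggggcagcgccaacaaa
Col4a2 (chr8:11312555-11312854, plus strand): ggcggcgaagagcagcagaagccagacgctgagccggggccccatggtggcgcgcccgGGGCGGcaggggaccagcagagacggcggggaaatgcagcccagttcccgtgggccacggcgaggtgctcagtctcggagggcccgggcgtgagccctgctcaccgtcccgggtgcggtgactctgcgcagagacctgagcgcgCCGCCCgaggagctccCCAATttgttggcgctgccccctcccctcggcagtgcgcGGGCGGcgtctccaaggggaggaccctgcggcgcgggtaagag

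**Figure D5:**
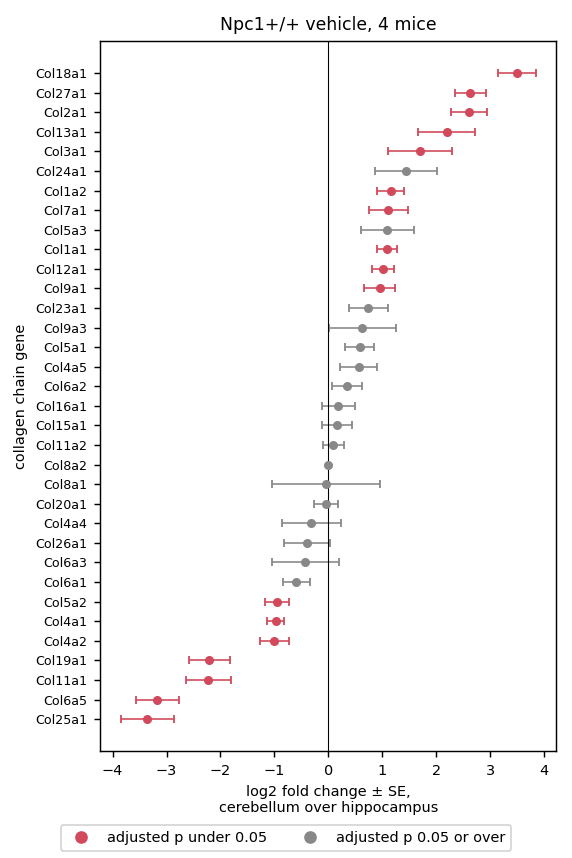
Log2 fold change ± SE (x axis) of 34 collagen chains (y axis) in cerebellum over hippocampus of the 4 Npc1+/+ mice; red marks an adjusted p under 0.05. Values run from Col25a1 at -3.36 to Col18a1 at 3.50, and Col8a2, at 0, has no SE.

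The remaining chains showed no difference that passed in any comparison. Col6a1, a core chain of type VI collagen (ENSMUSG00000001119.8, GRCm39 chr10:76544626-76562002, minus strand), had 56.0, 32.4, 36.1 and 40.4 CPM in dipyridamole-treated Npc1-/-, 32.8, 63.2, 30.1 and 34.2 CPM in vehicle-treated Npc1-/-, and 26.4, 26.8, 27.6 and 20.9 CPM in Npc1+/+ cerebella. All Npc1-/- cerebella lay above the Npc1+/+ ones, yet the log2 fold change was 0.38 ± 0.27 (SE), with an edgeR adjusted p of 0.422. In the hippocampus it was at 107, 28.3, 48.8 and 120.1 CPM in dipyridamole-treated Npc1-/-, 44.2, 171, 32.5 and 44.4 CPM in vehicle-treated Npc1-/-, and 55.4, 36.9, 29.4 and 34.6 CPM in Npc1+/+ hippocampi. Vehicle-treated replicate 2 and treated replicates 1 and 4 stood above all others. In the cerebellum Col9a3 was at 27.6, 48.6, 48.6 and 64.9 CPM in dipyridamole-treated Npc1-/-, 33.3, 25.7, 44.2 and 53.2 CPM in vehicle-treated Npc1-/-, and 51.7, 31.3, 43.6 and 40.6 CPM in Npc1+/+ cerebella, with overlapping groups. Col4a4, a type IV chain known from the kidney glomerulus (ENSMUSG00000067158.10, GRCm39 chr1:82426144-82564570, minus strand), had 2.31, 2.65, 1.10 and 2.47 CPM in dipyridamole-treated Npc1-/-, 0.835, 0.514, 1.75 and 2.30 CPM in vehicle-treated Npc1-/-, and 1.74, 1.20, 1.28 and 1.70 CPM in Npc1+/+ cerebella. Its groups overlapped, and over all libraries it spanned 0.514 to 4.597 CPM. Between their lowest and highest library, Col15a1, the other multiplexin, spanned 2.06 to 12.1 CPM, Col20a1 spanned 4.99 to 14.9 CPM, Col6a2 spanned 2.44 to 11.8 CPM and Col4a5 spanned 0.825 to 7.71 CPM. Col26a1 spanned 0.116 to 2.81 CPM and Col6a3 spanned 0.285 to 6.78 CPM. Col14a1, Col22a1, Col28a1 and Col6a6 were at or under 2.58 CPM throughout and were not tested in any comparison because of their low counts.

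Genes that make, bind and degrade collagen were followed in 7 lists. Of the enzymes that fold and modify the chains, 2 of 21 tested rose in vehicle-treated Npc1-/- cerebella, P3h4, a partner of the lysyl hydroxylase, by 0.94 ± 0.23 (edgeR adjusted p = 0.0117), and the prolyl 3-hydroxylase P3h2, by 1.06 ± 0.31 (edgeR adjusted p = 0.0389) (log2 fold change ± SE). That is 9.52% of the list, beside 9.95% of all genes tested. Of those that remove propeptides and cross-link fibrils, 1 of 10 fell, the protease Tll1, at -0.79 ± 0.22 (edgeR adjusted p = 0.0256), again a share near that of all genes. Of the receptors, 2 of 8 rose, the inhibitory leukocyte receptor Lair1 at 1.11 ± 0.27 (edgeR adjusted p = 0.0131), and the type III collagen receptor Adgrg1 at 0.88 ± 0.25 (edgeR adjusted p = 0.0337). Lair1 was at 19.4, 20.3, 21.9 and 14.4 CPM in dipyridamole-treated Npc1-/-, 20.9, 33.4, 15.9 and 25.2 CPM in vehicle-treated Npc1-/- and 7.12, 11.4, 7.70 and 9.21 CPM in Npc1+/+ cerebella, with no overlap between genotypes. In the hippocampus, Lair1 was the only gene of these lists that passed between vehicle-treated Npc1-/- and Npc1+/+ mice, at 0.96 ± 0.22 (edgeR adjusted p = 0.0443). It was 1 of 8 receptors tested, beside 1.62% of all genes tested. That call was lost in 9 of the 12 fits that left out 1 library, and without the libraries of vehicle-treated mouse 2 and dipyridamole-treated mouse 4 (edgeR adjusted p = 0.0637). The next smallest edgeR adjusted p there was that of the collagen chaperone Serpinh1, at -1.24 ± 0.32 (edgeR adjusted p = 0.0815), followed by Thbs2, at 1.09 ± 0.30 (edgeR adjusted p = 0.1098), and Tgfb1, at 0.89 ± 0.25 (edgeR adjusted p = 0.115). Between dipyridamole-treated Npc1-/- and Npc1+/+ hippocampi, which share their Npc1+/+ libraries with that comparison, 4 genes of these lists passed. By list that was 1 of 20 folding and modifying genes, 1 of 8 receptors, 1 of 11 fibril partners and 1 of 11 profibrotic signals. The share over all genes tested was 2.68%. The genes were Serpinh1 at -1.13 ± 0.27 (edgeR adjusted p = 0.0430), Lair1 at 0.92 ± 0.20 (edgeR adjusted p = 0.0225), Thbs2 at 1.22 ± 0.26 (edgeR adjusted p = 0.0221) and Tgfb1 at 1.13 ± 0.22 (edgeR adjusted p = 0.0118). None of the 4 passed without the 2 libraries, with edgeR adjusted p values of 0.1335, 0.0875, 0.1602 and 0.0975 in that order.

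Of collagen-degrading enzymes and their inhibitors 3 of 8 rose and 1 fell. Timp2, an inhibitor of metalloproteinases, was at 1.21 ± 0.24 (edgeR adjusted p = 0.00261), its relative Timp3 at 0.95 ± 0.22 (edgeR adjusted p = 0.00965) and the collagenase Mmp14 at 0.63 ± 0.18 (edgeR adjusted p = 0.0285). Timp4 fell, at -0.59 ± 0.17 (edgeR adjusted p = 0.0390). Of the basement membrane partners of type IV, the laminin chain Lamb2 rose, at 0.62 ± 0.17 (edgeR adjusted p = 0.0242), and Lamb1 fell, at -0.84 ± 0.25 (edgeR adjusted p = 0.0390), of 14 tested. Among fibril partners 2 of 12 rose, the matrix glycoprotein Thbs2 at 1.13 ± 0.24 (edgeR adjusted p = 0.00560) and fibromodulin, Fmod, at 1.22 ± 0.27 (edgeR adjusted p = 0.00624). Of the profibrotic signals 2 of 11 rose, Tgfb1 at 1.30 ± 0.27 (edgeR adjusted p = 0.00362) and Ccn2 at 1.33 ± 0.32 (edgeR adjusted p = 0.0125). Beside the same 9.95% of all genes, the shares that passed were 25.0% of the receptors, 50.0% of the degrading enzymes and inhibitors, 14.3% of the basement membrane partners, 16.7% of the fibril partners and 18.2% of the profibrotic signals, each over 14 genes or fewer. The list medians were 0.14, -0.30, 0.14, 0.65, 0.04, 0.27 and 0.61 in the order given, beside 0.01 over all genes tested. With dipyridamole against vehicle 0 genes of these 7 lists passed in either tissue by edgeR or DESeq2, with 2 at an unadjusted p under 0.05 in cerebellum and 0 in hippocampus. Between the genotype effects of the tissues, 1 gene passed, the procollagen protease Adamts3, at -1.16 ± 0.25 (edgeR adjusted p = 0.0249). It was 1 of 11 processing and cross-linking genes tested, beside 1.15% of all genes tested. Adamts3 did not pass without both libraries of vehicle-treated mouse 2 and dipyridamole-treated mouse 4 (edgeR adjusted p = 0.0635).

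Between Npc1+/+ tissues, where 43.1% of all genes passed (21.3% higher and 21.8% lower), 2 of 21 folding and modifying genes were higher and 7 lower in cerebellum, led by the prolyl 4-hydroxylase subunit P4ha1 at -0.83 ± 0.13 (edgeR adjusted p = 5.06e-05); that is 42.9% of the list, near the share of all genes. Of the processing and cross-linking genes 4 were higher and 2 lower of 11, led by Tll1 at 2.65 ± 0.21 (edgeR adjusted p = 1.30e-08) and Bmp1 at 1.40 ± 0.12 (edgeR adjusted p = 3.65e-08), proteases that remove the carboxy-terminal propeptide. The peroxidasin gene Pxdn, whose enzyme cross-links type IV collagen, was lower, at -2.91 ± 0.30 (edgeR adjusted p = 4.67e-07). Of the remaining lists, 1 was higher and 2 lower of 8 receptors, and 2 higher and 1 lower of 8 degrading enzymes and inhibitors. Among 16 basement membrane partners 2 were higher and 3 lower, among 12 fibril partners 2 were higher and 4 lower, and among 11 profibrotic signals 2 were higher and 7 lower. The shares of the lists other than the first ran from 31.2% for basement membrane partners to 81.8% for profibrotic signals.

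By rank correlation over the 12 cerebellar libraries, the genes most like Col18a1 were Alpk2 and Cep76 (Spearman's rho 0.965 each), Banp and Ptch1 (0.951 each) and Rpl34 (0.944). Those most like Col2a1 were Nr4a3 (0.986), Cck and Ninl (0.972 each), and Camk2a and Fbln7 (0.965 each). Over the 12 hippocampal libraries, Fbxo42 (0.923), Ahsa1 and Cemip (0.909 each), Spry4 (0.902) and Mkks (0.888) were most like Col1a1. For Col8a2 they were Enpp2 and Tmem237 (0.923 each), Sulf1 (0.895), and Cndp1 and the choroid plexus marker Tmem72 (0.888 each). These are descriptions over libraries that share groups, depth and dissection.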

How the data were processed

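RNA of 24 mouse brain libraries (12 mice, cerebellum and hippocampus of each) was read with the Ion AmpliSeq Transcriptome Mouse panel, in which each gene is represented by a short amplicon. The authors deposited 1 table of raw counts per library. Per the submitters' processing notes, FastQC 0.11.9, Trimmomatic 0.39, STAR 2.7.9a and featureCounts 2.0.3 and the build GRCm39 were used; per the file headers, counts were made per gene without strand. Totals ranged from 1833609 to 11590081 counts, so a chain under about 1 CPM rests on few reads. The floors (3 counts) cover counting error only, while the SD and SE values include the spread between mice.

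Gene symbols were taken from a table of Ensembl identifiers, which matched 51884 of 57126 genes and gave all 44 collagen chains. CPM values were computed from the counts with TMM factors over all 24 libraries. Each tissue was fitted with edgeR 4.0.16 in R 4.3.3 over its 3 groups with sex as covariate (filterByExpr, robust quasi-likelihood fit, Benjamini-Hochberg adjustment over all genes tested, threshold 0.05). The tissues were compared over 24 libraries with the mouse as a block, since the labels give the same animal number for both tissues, and with tissue by sex. Over the 12 mice the correlation of the deviations of the 2 tissues ran from -0.271 to 0.354. Sex was in the fit because the Npc1+/+ mice were all female. Where the labels do not say more, p-values measure the spread between the mice of this series.

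Chains with 1 CPM in 4 libraries were named. Values per library were given for chains that passed in any of 8 comparisons, the 5 of smallest p where fewer than 5 passed, and the 10 of highest mean CPM. Of each gene list, up to 4 genes that passed with the smallest p could be named. Genes named as alike are the 5 of highest Spearman's rho with the 2 chains of smallest genotype p in each tissue. The collagen chains and the gene lists were chosen with earlier results of these data known. Alternatives were DESeq2 1.42.0, other normalizations, filters and covariates, a replicate block, females alone, and leaving out each library. Replicates of a group all differed by more than counting error (lowest ratio of chi-square to degrees of freedom 6.645).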

Additional observations from a re-analysis of the deposited data

Results flagged for a closer look

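In 13 of 174 sets checked (28 collagen chains and their sum in 6 groups of 4 libraries), 1 library stood apart from the other 3 by Dixon's test; chance gives this in about 1 in 20 sets. In the shallow cerebellar library of vehicle-treated Npc1-/- mouse 2, Col1a2 was at 32.9 CPM (others 17.68 to 19.97 CPM) and Col6a1 at 63.23 CPM (others 30.08 to 34.21 CPM). In that library Col23a1 was at 10.28 CPM (others 22.84 to 25.05 CPM) and Col6a5 at 0.0 CPM (others 0.7489 to 0.8625 CPM, under the 1.54 CPM that 3 counts are worth there).

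In the hippocampus, Col24a1 was at 9.507 CPM in dipyridamole-treated mouse 4 (others 0.376 to 0.6554 CPM), the library low in hippocampal neuron markers. Col8a2 was at 1.498 CPM in dipyridamole-treated mouse 1 (others 0.232 to 0.4074 CPM), which was rich in choroid plexus markers. Col6a1 was at 170.9 CPM in vehicle-treated Npc1-/- mouse 2 (others 32.55 to 44.36 CPM). In vehicle-treated Npc1-/- mouse 1, Col4a2 was at 11.25 CPM (others 5.178 to 5.991 CPM) and Col5a1 at 14.9 CPM (others 27.76 to 30.38 CPM).

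In the cerebellum, Col25a1 was at 4.393 CPM in dipyridamole-treated mouse 3 (others 1.714 to 2.149 CPM) and Col7a1 at 3.114 CPM in dipyridamole-treated mouse 1 (others 4.52 to 4.728 CPM). Col24a1 was at 6.037 CPM in vehicle-treated Npc1-/- mouse 4 (others 4.055 to 4.119 CPM). Col23a1 was at 38.22 CPM in Npc1+/+ mouse 1 (others 21.4 to 23.86 CPM). The genotype effect on Col18a1 differed between the tissues, by -3.02 on the log2 scale (cerebellum minus hippocampus), by the test of that difference in the edgeR fit. The part of depth and of cell type markers in these values was not tested.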

How the results depend on the processing

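Of 1012 pairs of a chain that passed and a setting, 921 kept direction and side of the threshold, 91 kept the direction only and 0 reversed. These pool all comparisons, among them the 17 chains of the Npc1+/+ tissue comparison, which seldom lost the call. Calls between vehicle-treated Npc1-/- and Npc1+/+ cerebella were less stable. When 1 library was left out, Col24a1 kept that call in 2 of 12 fits, Col9a1 in 6 and Col12a1 in 7. Col2a1 and Col5a1 kept it in 11, and Col11a2, Col16a1, Col18a1 and Col5a3 in 12. Col18a1 in vehicle-treated Npc1-/- over Npc1+/+ cerebella passed in every setting tried. The 9 chains that passed between vehicle-treated Npc1-/- and Npc1+/+ cerebella became 1 with only the groups compared, 5 in females alone and 4 to 10 when 1 library was left out (4 without vehicle-treated Npc1-/- replicate 3, 6 without dipyridamole-treated replicate 2 or 4, 10 without vehicle-treated Npc1-/- replicate 2). The 10 of dipyridamole-treated Npc1-/- over Npc1+/+ cerebella became 4 to 11 when 1 library was left out (4 without dipyridamole-treated replicate 4) and 6 to 13 in the other settings, with 13 in females alone. The 1 chain of the tissue difference in genotype (Col18a1) became 2 with DESeq2, 0 without both libraries of vehicle-treated Npc1-/- mouse 2 and dipyridamole-treated mouse 4 (chosen after seeing the data), and 0 to 1 when 1 library was left out. It was 0 without the cerebellum or hippocampus of mouse 3 of any group or of vehicle-treated Npc1-/- mouse 1, with differences of -3.25 to -2.78. The cause was not tested.

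With the replicate number of the labels as a block, which names different mice within a tissue, the counts were 2 (Col18a1 and Col2a1) and 6 in the cerebellar comparisons with Npc1+/+ mice, and 0 in the other within-tissue comparisons. Same-numbered libraries correlated from -0.28 to 0.448, over 0.1 in 6 of 24 pairs, so the numbers were not taken as pairs. Without the mouse as a block, the tissue difference in genotype had 0 chains (Col18a1 at -2.83) and the tissue comparison 17.

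Over all genes, the 1286 that passed between vehicle-treated Npc1-/- and Npc1+/+ cerebella became 2249 without sex, 613 with the replicate block, 421 with only the groups compared and 474 without vehicle-treated replicate 3. In hippocampi 206 became 490 without sex, 55 with the block, 47 with only the groups compared and 419 with DESeq2. For dipyridamole-treated Npc1-/- over Npc1+/+ mice, 1864 cerebellar genes became 1171 with the block, and 342 hippocampal genes became 195 with the block, 179 in females, 689 with DESeq2 and 144 without the doubtful libraries. The tissue difference had 155 genes, and 386 without tissue by sex; dipyridamole over vehicle in cerebellum had 0, and 13 without a filter. Chains under about 1 CPM are limited by depth.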
